A study of Homo sapiens with 9 samples.

Results

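The genes described here are 10 members of the Wnt signalling pathway in MDA-MB-231 cells: the ligands WNT5A and WNT5B, the receptors FZD2, FZD6 and FZD8, the co-receptor LRP6, the secreted antagonists DKK1 and DKK3, the feedback gene AXIN2 and the transcription factor TCF7. They were chosen by their symbols in the deposited table, and all 10 were found among its 60612 genes. MDA-MB-231 is an established human line of triple-negative breast cancer. Cells were transfected by lipid reagent with MILIP siRNA1, with MILIP siRNA2 or with a negative control siRNA, and their RNA was sequenced 48 hours later, with 3 libraries per group and 9 in all. All groups share the line and the transfection. The series title names the long non-coding RNA MILIP as the target, while the transfection text calls the same siRNAs PLANE siRNAs. The labels do not state whether replicate libraries were separate cultures. The p-values therefore reflect the spread among these libraries only, and that spread may be technical. RNA was taken from whole wells, where fewer cells of a type and less RNA per cell cannot be told apart.

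Wnt proteins are lipid-modified secreted signals that bind Frizzled (FZD) receptors on neighbouring cells. When a Wnt also engages LRP5 or LRP6, the destruction complex of AXIN, APC and kinases is held back, and beta-catenin enters the nucleus to act with TCF and LEF factors. WNT5A and WNT5B are best known for routes that do not need beta-catenin, through Frizzled and ROR receptors, and WNT5A is linked to the migration of breast cancer cells. DKK1 binds LRP5 and LRP6 and blocks them, and AXIN2 is a beta-catenin target that feeds back on the pathway.

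The libraries held 15281220 to 19759371 counts, and 15345 genes had enough counts to be tested, among them all 10 Wnt genes. Levels are CPM, the counts of a gene per 1e+06 counts of its library after TMM scaling for library composition. MILIP, listed in the table under the symbol MAFG-DT, averaged 1.24 ± 0.641 CPM with siRNA1 and 0.616 ± 0.316 CPM with siRNA2, against 8.41 ± 0.254 CPM in control libraries (SD, n = 3 each). On the log2 scale MILIP fell by 2.74 with siRNA1 (adjusted p = 2.51e-09) and by 3.73 with siRNA2 (adjusted p = 5.34e-11). The mesenchymal markers VIM, CD44, AXL and MSN, which mark this line, were all detected, at a summed 5869.9 to 6204.1 CPM with siRNA1, 6108.2 to 6149.5 CPM with siRNA2 and 7319.3 to 7701.5 CPM in control libraries. VIM made up most of each sum (4619.1, 4072.7 and 4779.8 CPM). AXL averaged 103.3, 273.2 and 1004.1 CPM in the same order, and was lower with both siRNAs. CD44 averaged 655.8, 932.0 and 830.3 CPM, and MSN 710.1, 844.9 and 872.9 CPM. The 8 epithelial markers summed to 1998.1 to 2312.3 CPM with siRNA1, 1288.5 to 1333.3 CPM with siRNA2 and 1120.4 to 1289.0 CPM in controls, with KRT8 and KRT18 the leading genes, CDH1 averaging 1.8 CPM or less in each group and PGR at 1 count or fewer. The 8 fibroblast markers summed to 51.0 to 59.5 CPM with siRNA1, 72.8 to 75.1 CPM with siRNA2 and 11.6 to 14.2 CPM in controls, and COL1A1 made up most of the sum (45.1, 61.3 and 8.25 CPM), while THY1 averaged 2.03, 2.29 and 3.26 CPM in the same order and DCN, LUM and PDGFRA had 6 counts or fewer in every library. The 4 leukocyte markers summed to 0.73 to 2.26 CPM with siRNA1, 8.17 to 9.03 CPM with siRNA2 and 1.73 to 2.82 CPM in controls, nearly all of it CD14 (1.34, 8.49 and 2.11 CPM), with PTPRC, CD3E and LYZ at 6 counts or fewer. The 4 endothelial markers, led by PECAM1 and KDR, summed to 5.78 to 7.09 CPM with siRNA1, 18.4 to 20.4 CPM with siRNA2 and 8.78 to 11.1 CPM in controls. These sums differ between the groups, and their part in the Wnt results was not tested.

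Of the 10 Wnt genes, 7 passed an adjusted p of 0.05 in edgeR's test with siRNA1, where 50.4% of all tested genes did so, and 7 with siRNA2, where 56.1% did. In 10 genes such a count is not read as particular to them. FZD2, FZD6, DKK1, DKK3 and AXIN2 rose with siRNA1, and WNT5A and FZD8 fell. WNT5A, FZD6, DKK3 and LRP6 rose with siRNA2, and WNT5B, FZD8 and DKK1 fell. FZD6 and DKK3 rose with both siRNAs, as 11.8% of all tested genes did, and FZD8 fell with both, as did 11.1%. WNT5A and DKK1 were called in opposite directions by the siRNAs, which 9.93% of tested genes were, and TCF7 was called with neither. In all, 5 of the 10 were called with both siRNAs, beside 32.8% of tested genes. The median log2 fold change of the 10 genes was 0.16 with siRNA1 and 0.20 with siRNA2, beside 0.003 and −0.011 over all tested genes. Both comparisons use the same control libraries.

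**Figure D1:**
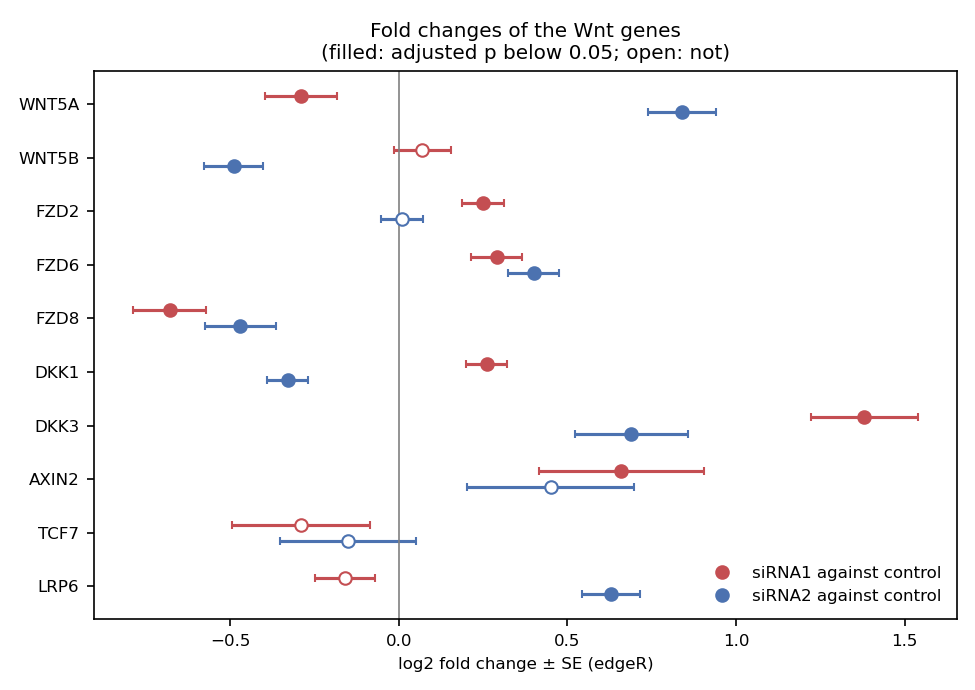
Log2 fold change against control (horizontal axis, ± SE from edgeR) of the 10 Wnt genes with siRNA1 (red) and siRNA2 (blue), filled where the adjusted p is below 0.05. FZD6, FZD8 and DKK3 have both filled points on the same side of 0, and WNT5A and DKK1 have them on opposite sides.

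A siRNA can lower mRNAs that pair with its seed, so the 3′ untranslated regions (UTRs) were searched for short words, and the sites in the Wnt genes are shown here beside those in MILIP. Words of 7 bases were ranked by the t statistic of their presence against log2 fold change. Among 16040 words, AATTCCA had the lowest t with siRNA1 and GACCCTA with siRNA2. Each occurs in MILIP, and the forms shifted by 1 base, ATTCCAA and ACCCTAA, were searched with them. The words were picked on these same fold changes, without use of the siRNA sequences. Genes with the siRNA1 word or form, 25.5% of 12591 genes with a UTR, had a median of −0.188 on the log2 scale with siRNA1, and those lacking it 0.054. For the siRNA2 word or form the share was 12.1%, and the medians with siRNA2 were −0.211 in genes with it and 0.026 in genes without it. A match is a description of the sequence, and its part in the Wnt results was not tested. Each 29-base stretch is given from GENCODE v29 (GRCh38) on the strand of the gene, 5′ to 3′, with the word or its form in capitals.
MILIP, siRNA1 word, chr17:81930349-81930377, plus strand: ggagtcagggcAATTCCAaccaagaaact
MILIP, siRNA2 word, chr17:81930473-81930501, plus strand: ggtaacatagaGACCCTAtcgctacaaga
WNT5A, siRNA1 form, chr3:55468510-55468538, minus strand: cagttgggattATTCCAAaagttttttga
WNT5A, siRNA2 form, chr3:55469783-55469811, minus strand: aaataacacatACCCTAActtagctgtgt
DKK1, siRNA1 form, chr10:52316911-52316939, plus strand: ttcagttaagcATTCCAAtaacaccttcc
TCF7, siRNA1 word, chr5:134147361-134147389, plus strand: gcctttttcacAATTCCAtttccagttca
The other 7 Wnt genes held neither word nor form in the UTR searched. WNT5A, with both forms, fell by 0.29 on the log2 scale with siRNA1 and rose by 0.84 with siRNA2. DKK1, with the siRNA1 form, rose by 0.26 with siRNA1, and TCF7, with the siRNA1 word, was not called.

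The 2 WNT5 ligands moved apart with siRNA2. WNT5A (ENSG00000114251, chr3:55465715-55490539, minus strand, GRCh38) had 27.9, 25.4 and 21.2 CPM with siRNA1, 59.1, 51.8 and 51.9 CPM with siRNA2, and 35.5, 27.9 and 27.8 CPM in control libraries. Every siRNA2 library lay above every other library, whereas the siRNA1 and control libraries met at their edges. With siRNA2 the ligand rose by 78.5% (log2 fold change 0.84, SE 0.1, adjusted p = 1.16e-07). With siRNA1 it fell by 0.29 on the log2 scale (SE 0.106, adjusted p = 0.0233), a call that was lost without siRNA1 library 3 (−0.19, adjusted p = 0.174) and without control library 1 (−0.17, adjusted p = 0.202). Between the siRNAs, WNT5A was 1.13 log2 higher with siRNA2 than with siRNA1 (adjusted p = 6.19e-10).

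WNT5B (ENSG00000111186, chr12:1529891-1647212, plus strand) is the close relative of WNT5A. It had 40.0, 34.4 and 37.9 CPM with siRNA1, 24.2, 25.6 and 26.6 CPM with siRNA2, and 33.2, 34.6 and 39.2 CPM in control libraries. All 3 siRNA2 libraries lay below the rest, and the siRNA1 libraries overlapped the controls. WNT5B fell by 0.49 on the log2 scale with siRNA2 (SE 0.088, adjusted p = 3.9e-05), while with siRNA1 the difference was 0.07 (SE 0.085, adjusted p = 0.547).

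Per exon length, the WNT5A level divided by the WNT5B level was 0.401, 0.424 and 0.322 with siRNA1, 1.40, 1.16 and 1.12 with siRNA2, and 0.614, 0.462 and 0.406 in control libraries. WNT5A thus stood above WNT5B in all 3 siRNA2 libraries and below it in the 6 others. The difference in log2 ratio from controls was −0.36 with siRNA1 (two-sided exact permutation p = 0.2) and 1.33 with siRNA2 (exact permutation p = 0.1, the smallest that 3 against 3 libraries allow).

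**Figure D2:**
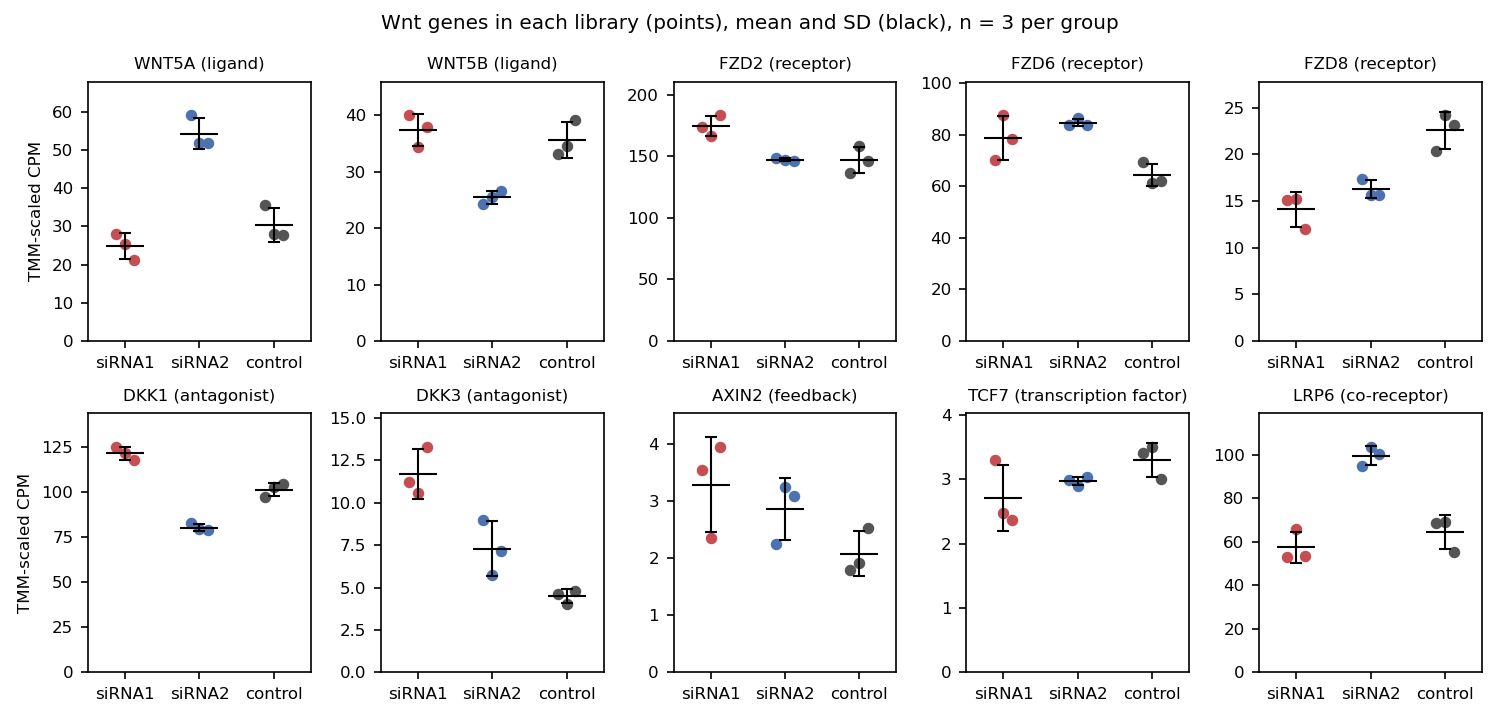
TMM-scaled CPM (vertical axes, from 0) of each Wnt gene in each library (points) with siRNA1, siRNA2 and control siRNA, with the mean and SD in black (n = 3 per group). WNT5A and LRP6 are highest in the siRNA2 libraries, WNT5B and DKK1 are lowest there, and the groups overlap for AXIN2 and TCF7.

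Frizzled receptors carry the extracellular domain that binds Wnt proteins, and the 3 studied here showed 3 different patterns. FZD2 (ENSG00000180340, chr17:44557484-44561262, plus strand) had 174.0, 166.5 and 183.3 CPM with siRNA1, 149.0, 146.7 and 146.6 CPM with siRNA2, and 136.3, 158.0 and 146.4 CPM in control libraries. Each siRNA1 library lay above every other one, and the siRNA2 values fell inside the range of the controls. FZD2 rose by 18.9% with siRNA1 (log2 fold change 0.25, SE 0.062, adjusted p = 0.00156), and with siRNA2 the log2 difference was 0.01 (SE 0.062, adjusted p = 0.946).

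FZD6 (ENSG00000164930, chr8:103298433-103332866, plus strand) is known as a receptor of planar cell polarity and as a negative regulator of the beta-catenin route. Its levels were 70.4, 87.6 and 78.3 CPM with siRNA1, 83.8, 86.5 and 84.0 CPM with siRNA2, and 69.4, 61.5 and 62.2 CPM in control libraries. Every knockdown library lay above every control, the lowest of them only just. FZD6 rose by 22.4% with siRNA1 (log2 fold change 0.29, SE 0.076, adjusted p = 0.00243) and by 31.7% with siRNA2 (0.40, SE 0.076, adjusted p = 7.96e-05). The difference between the siRNAs did not pass the test (siRNA2 over siRNA1 0.11, SE 0.074, adjusted p = 0.23).

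FZD8 (ENSG00000177283, chr10:35638249-35642278, minus strand), a receptor that can pair with LRP6 in beta-catenin signalling, was the receptor that fell with both siRNAs. Its libraries held 15.1, 15.2 and 12 CPM with siRNA1, 17.4, 15.7 and 15.7 CPM with siRNA2, and 20.4, 24.2 and 23.2 CPM with the control siRNA. No knockdown library reached the lowest control. FZD8 fell by 0.68 on the log2 scale with siRNA1 (SE 0.108, adjusted p = 9.57e-06) and by 0.47 with siRNA2 (SE 0.106, adjusted p = 0.000446).

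LRP6 (ENSG00000070018, chr12:12116025-12267044, minus strand) is the co-receptor that docks AXIN when a Wnt binds. It had 53.1, 65.9 and 53.6 CPM with siRNA1, 94.9, 103.6 and 100.2 CPM with siRNA2, and 68.8, 69.1 and 55.3 CPM in control libraries. The siRNA2 libraries stood clear of all others, and the siRNA1 libraries overlapped the controls. LRP6 rose by 54.7% with siRNA2 (log2 fold change 0.63, SE 0.086, adjusted p = 8.87e-07). With siRNA1 the log2 difference was −0.16 (SE 0.088, adjusted p = 0.135), and it passed the test without siRNA1 library 2 (−0.27, adjusted p = 0.00919) or without control library 3 (−0.28, adjusted p = 0.00548). Its paralog LRP5, the other Wnt co-receptor, averaged 429.0 ± 22.8 CPM with siRNA1, 845.5 ± 54.6 CPM with siRNA2 and 348.1 ± 20.3 CPM in controls. LRP5 rose by 0.30 on the log2 scale with siRNA1 (adjusted p = 0.000184) and by 1.28 with siRNA2 (adjusted p = 7.43e-15), so both co-receptors were higher with siRNA2.

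DKK1 and DKK3 belong to the Dickkopf family of secreted proteins. DKK1 (ENSG00000107984, chr10:52314281-52318042, plus strand) had 124.9, 121.3 and 117.6 CPM with siRNA1, 82.7, 79.2 and 78.7 CPM with siRNA2, and 96.9, 102.4 and 104.2 CPM in control libraries. The 3 groups did not overlap, with siRNA1 above and siRNA2 below the controls. DKK1 rose by 19.8% with siRNA1 (log2 fold change 0.26, SE 0.061, adjusted p = 0.000862) and fell by 0.33 on the log2 scale with siRNA2 (SE 0.061, adjusted p = 5.06e-05). Set against siRNA1 directly, siRNA2 gave a log2 difference of −0.60 (adjusted p = 6.28e-09). The antisense gene PRKG1-AS1 shares 9.61% of the DKK1 exon bases and had 46 to 81 counts per library.

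DKK1 is itself a known target of beta-catenin and TCF, and its promoter is shown for the TCF-type motifs in it. RefSeq promoter windows (GRCh38.p14, 250 bases before to 50 after a start) were given for WNT5A, WNT5B, FZD8, DKK1 and TCF7. The first motif searched on both strands was CTTTGAT, found in 2.62% of 35116 windows. The second was CTTTGTT, in 5.2%, and the third was CTTTGAA, in 4.43%, and 11.47% of windows hold at least 1 of them. DKK1 holds CTTTGAA starting 95 bases and CTTTGTT starting 76 bases before its start site, written in capitals in the 250 bases upstream (chr10:52314031-52314280, plus strand, 5′ to 3′).
DKK1: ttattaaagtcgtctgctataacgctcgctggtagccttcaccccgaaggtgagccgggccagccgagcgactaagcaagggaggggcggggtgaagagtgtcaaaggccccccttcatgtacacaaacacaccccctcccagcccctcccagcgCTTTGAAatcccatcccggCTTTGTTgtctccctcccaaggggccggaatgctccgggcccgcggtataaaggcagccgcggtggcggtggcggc
A window of TCF7 holds the same letters as AACAAAG, on the other strand, 50 bases before the start. The windows of WNT5A, WNT5B and FZD8 hold none of the 3.

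DKK3 (ENSG00000050165, chr11:11956207-12009769, minus strand), a divergent Dickkopf that does not act on LRP6 as DKK1 does and is often called a tumour suppressor, rose with both siRNAs. Its levels were 11.2, 10.6 and 13.3 CPM with siRNA1, 8.97, 5.74 and 7.16 CPM with siRNA2, and 4.63, 4.03 and 4.82 CPM in control libraries. The 3 groups were again separate, in the order siRNA1, siRNA2, control. The rise was 2.60-fold with siRNA1 (log2 fold change 1.38, SE 0.159, adjusted p = 8.23e-08) and 1.62-fold with siRNA2 (0.69, SE 0.167, adjusted p = 0.001), and siRNA2 lay below siRNA1 (−0.69, SE 0.145, adjusted p = 0.000225).

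AXIN2 (ENSG00000168646, chr17:65528563-65561648, minus strand), the scaffold of the destruction complex that beta-catenin induces, was near the low end of the measured range at 29 to 77 counts per library. It had 3.55, 2.36 and 3.95 CPM with siRNA1, 2.24, 3.25 and 3.09 CPM with siRNA2, and 1.79, 1.92 and 2.53 CPM in control libraries. Both knockdown groups averaged above the controls, and both overlapped them. AXIN2 rose with siRNA1 (log2 fold change 0.66, SE 0.244, adjusted p = 0.028), and with siRNA2 the difference was 0.45 (SE 0.247, adjusted p = 0.123). The call with siRNA1 was lost without siRNA1 library 1 or 3 and without control library 1 or 2, with log2 fold changes of 0.58, 0.49, 0.55 and 0.60 and adjusted p of 0.0863, 0.154, 0.0978 and 0.083. The gene AC004805.1 shares 25.18% of its exon bases on the same strand and had 0 to 2 counts.

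TCF7 (ENSG00000081059, chr5:134114681-134151865, plus strand), which encodes the transcription factor TCF1, had 3.29, 2.47 and 2.36 CPM with siRNA1, 2.99, 2.89 and 3.03 CPM with siRNA2, and 3.40, 3.50 and 3.00 CPM in control libraries. The groups overlapped. The log2 difference was −0.29 with siRNA1 (SE 0.205, adjusted p = 0.249) and −0.15 with siRNA2 (SE 0.201, adjusted p = 0.552). A difference in TCF7 was not detectable at this depth. The gene SKP1 shares 2.09% of the TCF7 exon bases on the opposite strand. SKP1 had 3790 to 6014 counts per library, beside 44 to 57 for TCF7, and its part in the TCF7 counts was not tested.

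Set against each other directly, the siRNAs differed in 6 of the 10 genes, where 60.4% of all tested genes differed. WNT5A and LRP6 were higher with siRNA2 than with siRNA1 (log2 differences 1.13 and 0.79). WNT5B, FZD2, DKK1 and DKK3 were lower with siRNA2 (−0.55, −0.24, −0.60 and −0.69). The median over the 10 genes was −0.05, beside −0.033 over all tested genes. Libraries of 2 groups did not overlap in 5 of the 10 genes for siRNA1 and control (53.8% of tested genes), in 7 for siRNA2 and control (61.8%) and in 7 for siRNA2 and siRNA1 (65.5%).

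Levels of different genes were compared per length, in deposited FPKM, which divides a count by exon length and by the library's total. In control libraries DKK1 had the highest mean FPKM of the 10 genes at 45.2 ± 1.41, followed by FZD2 at 38.6 ± 2.70, FZD6 at 15.7 ± 1.16 and WNT5B at 8.35 ± 0.697 (SD, n = 3 each). LRP6 (6.17 ± 0.785 FPKM) and FZD8 (5.57 ± 0.454 FPKM) overlapped, WNT5A followed at 4.08 ± 0.624 FPKM, and AXIN2, DKK3 and TCF7 lay between 0.323 and 0.393 FPKM, each overlapping the next. The FPKM of DKK3 rests on an exonic size of 11958 bases in the deposited table, which is 2.36 times its exon length in GENCODE v29. Whether reads outside the GENCODE v29 exons entered the DKK3 counts, and so its fold changes, was not tested. With siRNA2 FZD2 (38.7 FPKM) stood above DKK1 (35.9 FPKM), and WNT5A (7.28 FPKM) above WNT5B (5.97 FPKM).

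Shares of each ligand and receptor family are given as a description, with no test, and a share also depends on the other genes in the sum. Summed over the 19 Wnt genes listed, ligand FPKM was 45.3 ± 2.86 with siRNA1, 44.9 ± 0.852 with siRNA2 and 35.0 ± 0.794 in controls. WNT5A made up 7.54%, 16.2% and 11.6% of that sum with siRNA1, siRNA2 and control siRNA, and WNT5B 19.7%, 13.3% and 23.9%, at a WNT5B level of 8.91, 5.97 and 8.35 FPKM. The ligand that differed most in share was WNT9A, named after its values were seen, with 37.9% of the sum with siRNA1, 8.92% with siRNA2 and 11.1% in controls. Over the 10 Frizzled genes the sum was 85.7 ± 2.43 FPKM with siRNA1, 95.6 ± 0.500 FPKM with siRNA2 and 80.2 ± 2.68 FPKM in controls. FZD2 was the most abundant Frizzled in every group, at 54.5% of the sum with siRNA1, 40.5% with siRNA2 and 48.1% in controls. FZD8 held 4.14%, 4.19% and 6.94% in the same order.

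**Figure D3:**
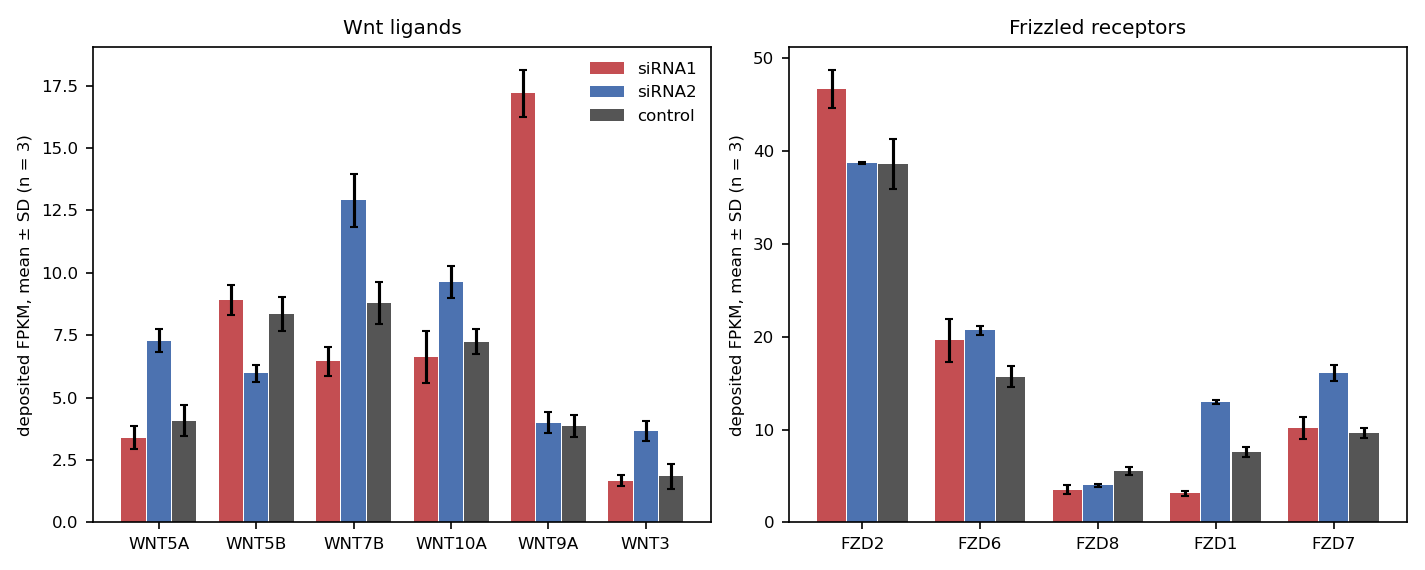
Mean deposited FPKM ± SD (vertical axes, n = 3) of 6 Wnt ligands (left) and 5 Frizzled receptors (right) with siRNA1 (red), siRNA2 (blue) and control siRNA (grey). WNT5A passes WNT5B with siRNA2, WNT9A stands out with siRNA1, and FZD2 is the highest Frizzled in each group.

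For each Wnt gene called with both siRNAs, the genes with the most similar pattern over the 9 libraries were found by the root mean square distance of log2 CPM centred on the control mean, among 9414 genes (9415 for DKK3). For WNT5A they were NAMPT (distance 0.107) and FAM210B (0.110), and for DKK1 TIMM44 (0.041) and CSTB (0.050). For FZD6 they were SLC25A24 (0.048) and SPOPL (0.061), for FZD8 DDX31 (0.098) and CLSPN (0.103), and for DKK3 ECH1 (0.148) and PGF (0.151).

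The rest of the pathway was read from lists of 139 Wnt pathway genes, the 10 included, of which 101 were tested. With siRNA1, 28 rose and 28 fell, 55.4% in all, where 25.1% of all tested genes rose and 25.3% fell. With siRNA2, 43 rose and 21 fell, 63.4% in all, with 42.6% of the pathway genes higher beside 27.2% of all tested genes, and 20.8% lower beside 28.9%. The median log2 fold change was 0.03 with siRNA1 and 0.13 with siRNA2. Between siRNA2 and siRNA1 76.2% of the pathway genes differed, beside 60.4% of all tested genes. With siRNA2 45 were higher (44.6%, beside 28.4%) and 32 lower (31.7%, beside 32.0%). Both siRNAs raised 13 of the 101 genes (12.9%, beside 11.8% of all tested genes) and lowered 6 (5.9%, beside 11.1%), and 15 (14.9%, beside 9.93%) were called in opposite directions. SOST, NOTUM, LGR5, LGR6 and FGF9 had fewer than 10 counts in every library of at least 1 group. The 13 genes raised by both siRNAs include SOST, NOTUM and LGR5, so that share is not read as a result. Without these 5 genes, 24 rose and 28 fell with siRNA1, and 40 rose and 21 fell with siRNA2.

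**Figure D4:**
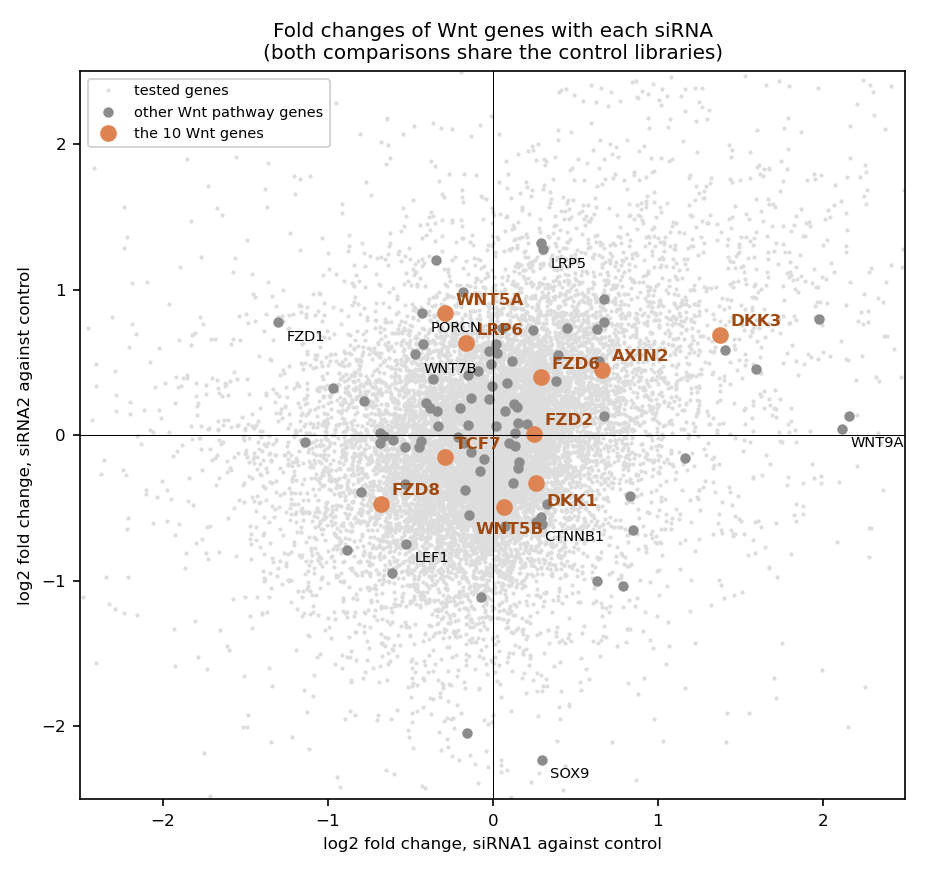
Log2 fold change against control with siRNA1 (horizontal) and siRNA2 (vertical) for the 10 Wnt genes (orange), 88 other Wnt pathway genes (dark grey) and all other tested genes (light grey); 218 tested genes, 3 of them pathway genes, lie outside the frame. Both axes use the same control libraries, so the positions are not independent. Of the orange points, DKK3 lies farthest to the right and FZD8 farthest to the left.

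The counts of each list, here and below, stand beside the shares over all tested genes. With siRNA1 25.1% of these rose and 25.3% fell, and with siRNA2 27.2% rose and 28.9% fell. Their median log2 fold changes were 0.003 and −0.011. The lists are short and were not tested, so no count is read as particular to a list. Of the 8 tested ligands, 1 rose and 2 fell with siRNA1, and 6 rose and 1 fell with siRNA2 (medians −0.17 and 0.70). WNT7B, a ligand of the beta-catenin route, averaged 32.4 ± 3.15 CPM with siRNA1, 66.1 ± 6.09 CPM with siRNA2 and 45.0 ± 4.27 CPM in controls, with log2 fold changes of −0.47 (adjusted p = 0.000116) and 0.56 (adjusted p = 5.87e-06). Its direction with each siRNA was that of WNT5A. Of 8 secretion factors, 1 rose and 3 fell with siRNA1, and 6 rose and 1 fell with siRNA2 (medians −0.01 and 0.36). PORCN, the enzyme that attaches the lipid to Wnt proteins, averaged 20.6 ± 0.476 CPM with siRNA1, 49.7 ± 6.27 CPM with siRNA2 and 27.8 ± 0.995 CPM in controls (log2 fold changes −0.43 and 0.84). WLS, the carrier that brings lipid-modified Wnts to the cell surface, averaged 72.4 ± 5.33 CPM with siRNA1, 107.6 ± 2.17 CPM with siRNA2 and 110.0 ± 4.77 CPM in controls. It fell by 0.61 on the log2 scale with siRNA1 (adjusted p = 3.65e-08), and with siRNA2 the difference was −0.03 (adjusted p = 0.708), with a sign that depended on the setting. TMED5, a cargo factor of the early secretory route, rose with both (log2 fold changes 0.39 and 0.55).

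Of the 13 tested receptors and co-receptors, 4 rose and 5 fell with siRNA1, and 7 rose and 2 fell with siRNA2 (medians −0.16 and 0.26). ROR1, a receptor tyrosine kinase that binds WNT5A, averaged 22.9 ± 1.64 CPM with siRNA1, 20.8 ± 2.13 CPM with siRNA2 and 14.7 ± 1.43 CPM in controls, and rose with both (log2 fold changes 0.65 and 0.51). FZD1 had 21.4 ± 1.81 CPM with siRNA1, 90.3 ± 0.806 CPM with siRNA2 and 52.8 ± 3.36 CPM in controls, with log2 fold changes of −1.30 (adjusted p = 1.03e-12) and 0.78 (adjusted p = 1.68e-09).

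Of 15 secreted antagonists 5 were tested, of which SOST and NOTUM entered the test through the knockdown libraries, where they are high, and are left out of the count. The 3 others, DKK1, DKK3 and IGFBP4, rose with siRNA1, and 2 of them rose and DKK1 fell with siRNA2 (medians 0.63 and 0.69). IGFBP4, a binding protein of insulin-like growth factors that can also hold back Wnt signalling, was the most abundant of them by CPM, with 964.5 ± 108.8 CPM with siRNA1, 1032.3 ± 73.5 CPM with siRNA2 and 621.9 ± 45.4 CPM in controls (log2 fold changes 0.63 and 0.73). SOST, the LRP5 and LRP6 antagonist sclerostin, had 31 to 41 counts with siRNA1, 59 to 82 with siRNA2 and 1 to 5 in controls. NOTUM, the enzyme that removes the Wnt lipid, had 7 to 12 counts with siRNA1, 12 to 20 with siRNA2 and 1 to 2 in controls.

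In the list of receptor turnover and the R-spondin axis 8 genes were tested, and LGR5 and LGR6 among them entered the test through the libraries where they are high. Of the 6 others, 4 rose and 1 fell with siRNA1, and 1 fell with siRNA2 (medians 0.75 and −0.11). LGR5, an R-spondin receptor, had 43 to 76 counts with siRNA1, 8 to 22 with siRNA2 and 4 to 6 in controls. LGR6, its paralog, had 18 to 30 counts with siRNA1, 5 to 17 with siRNA2 and 4 to 7 in controls. LGR5 was called with siRNA2 (log2 fold change 1.18, adjusted p = 0.0391). That LGR5 call was lost without siRNA2 library 3 (0.64, adjusted p = 0.308) or without any one control library (adjusted p = 0.0556 to 0.11).

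Of 14 genes of the destruction complex list, 2 rose and 6 fell with siRNA1, and 6 rose and 2 fell with siRNA2 (medians −0.12 and 0.21). CTNNB1, which encodes beta-catenin, averaged 615.5 ± 10.2 CPM with siRNA1, 339.2 ± 5.38 CPM with siRNA2 and 513.4 ± 7.52 CPM in controls. On the log2 scale it rose by 0.26 with siRNA1 (adjusted p = 0.000106) and fell by 0.60 with siRNA2 (adjusted p = 2.65e-10). APC, the scaffold that beta-catenin binds in the complex, averaged 26.8 ± 0.275 CPM with siRNA1, 65.8 ± 6.01 CPM with siRNA2 and 52.6 ± 10.3 CPM in controls. It fell by 0.97 on the log2 scale with siRNA1 (adjusted p = 4.14e-08), and its rise with siRNA2 (0.33, adjusted p = 0.00753) was lost without control library 3 (0.17, adjusted p = 0.0713) or siRNA2 library 3 (0.26, adjusted p = 0.0545). AMER1, a partner of APC at the membrane, fell with both (log2 fold changes −0.89 and −0.79).

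Among 15 Dishevelled and planar polarity genes, 2 rose and 3 fell with siRNA1, and 5 rose and 2 fell with siRNA2 (medians 0.12 and 0.02). CELSR2, a polarity cadherin, averaged 26.8 ± 1.35 CPM with siRNA1, 8.63 ± 0.309 CPM with siRNA2 and 17.3 ± 0.548 CPM in controls (log2 fold changes 0.63 and −1.0). Among 17 TCF and LEF factors and nuclear partners, 2 rose and 4 fell with siRNA1, and 4 rose and 5 fell with siRNA2 (medians −0.08 and −0.15). TCF7 and its relatives did not share a direction. LEF1 averaged 8.22 ± 0.429 CPM with siRNA1, 7.05 ± 0.915 CPM with siRNA2 and 11.9 ± 1.29 CPM in controls, and fell with both (log2 fold changes −0.52 and −0.74). TCF7L2 averaged 21.4 ± 1.42 CPM with siRNA1, 26.1 ± 0.733 CPM with siRNA2 and 15.6 ± 0.516 CPM in controls, and rose with both (0.45 and 0.74). PYGO1, a nuclear cofactor of beta-catenin, fell with siRNA1 (−0.80), and its fall with siRNA2 (−0.39, adjusted p = 0.0163) was lost without siRNA2 library 1 or 2 or control library 1 or 2. BCL9L, another such cofactor, whose exons share 37.5% of their bases with CXCR5 on the opposite strand, had log2 fold changes of −0.42 with siRNA1 and 0.63 with siRNA2.

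Of 21 tested beta-catenin target genes, LGR5, NOTUM and FGF9 were low in a whole group and are left out of the count. Among the 18 others, 8 rose and 5 fell with siRNA1, and 4 rose and 9 fell with siRNA2 (medians 0.23 and −0.24). AXIN2, DKK1, LEF1, LGR5 and NOTUM, treated above, are part of this list. BMP4, a growth factor of the TGF-beta family, averaged 81.5 ± 3.36 CPM with siRNA1, 87.3 ± 1.19 CPM with siRNA2 and 50.9 ± 2.63 CPM in controls, and rose with both (log2 fold changes 0.68 and 0.78). SOX9, a transcription factor of progenitor cells, averaged 27.8 ± 1.17 CPM with siRNA1, 4.79 ± 1.05 CPM with siRNA2 and 22.6 ± 1.42 CPM in controls. It fell by 2.23 on the log2 scale with siRNA2 (adjusted p = 1.61e-13), and its rise with siRNA1 (0.30, adjusted p = 0.0179) was lost without siRNA1 library 3 or control library 2 or 3.

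**Figure D5:**
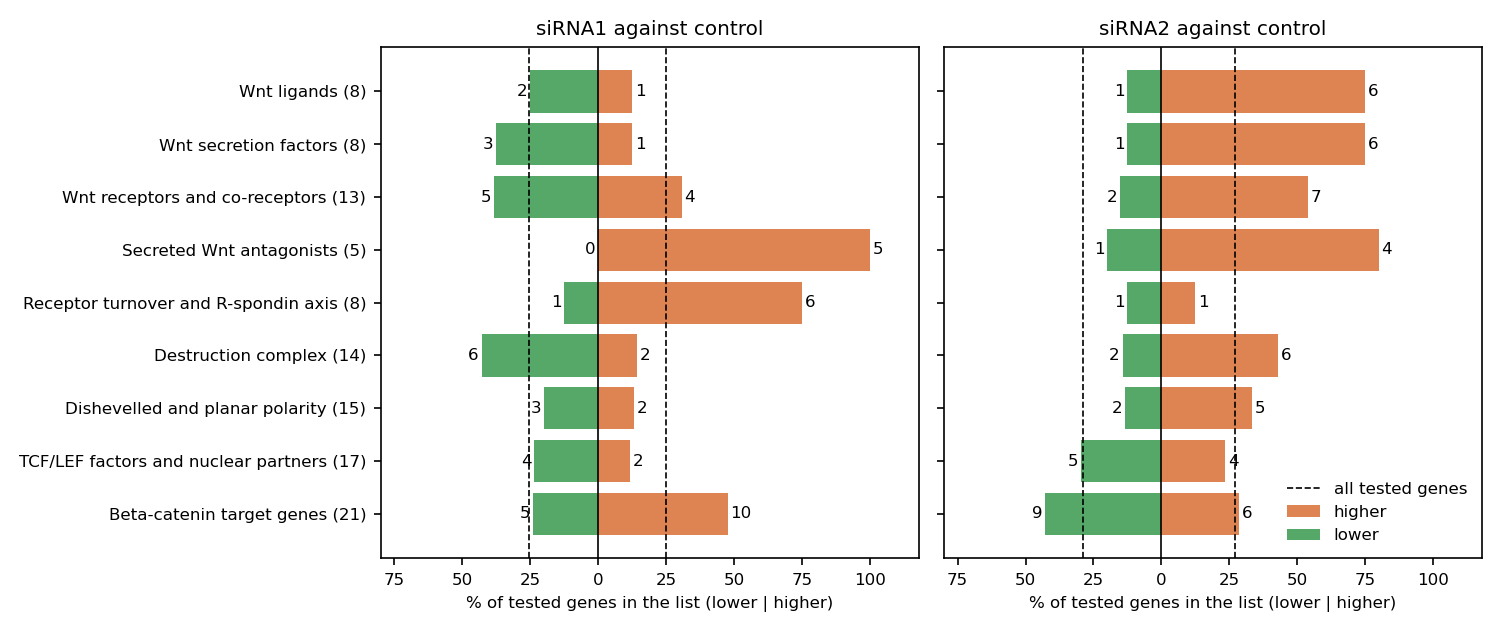
Share of the tested genes of each Wnt list that were higher (orange, right) or lower (green, left) than control with siRNA1 (left panel) and siRNA2 (right panel), in percent; numbers are gene counts, the number tested is in parentheses, and dashed lines give the share over all tested genes (25.1% higher and 25.3% lower with siRNA1, 27.2% and 28.9% with siRNA2). Ligands and secretion factors have 6 of 8 genes higher with siRNA2, and the bars include SOST, NOTUM, LGR5, LGR6 and FGF9, which entered the test through some groups only.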

How the data were processed

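RNA-seq of 9 MDA-MB-231 libraries (3 per group, grouped by their titles) was read from 1 deposited table. Its raw counts per gene and library were made by the authors before deposit, and the submitters' processing notes list HISAT2 2.0.1, HTSeq 0.6.1, Trimmomatic 0.30 and DESeq, with no step given for any. The deposited FPKM values were made by the authors from these counts, since division of a count by gene size and by the library total returned 100% of them to within 0.005. The notes list hg19, whereas the coordinates fit GRCh38, with 99.92% of 58394 identifiers overlapping the same gene in GENCODE v29. Use of strand in counting is not stated, so reads of a gene and of one overlapping it in antisense may be mixed. No row lacked a gene name, and no pair of libraries was identical.

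The filter filterByExpr (count minimum 10, total minimum 15) left 15345 genes with 99.87% of the counts. They were scaled by TMM and tested with edgeR 4.0.16 (quasi-likelihood, two-sided, 1 fit of the 3 groups, R 4.3.3) with Benjamini-Hochberg adjustment over all of them and calls at an adjusted p below 0.05. As a check of the code alone, the test was also run on counts simulated with the means and spread estimated in this fit. Such a run cannot show whether that spread is right. Ratios had exact permutation tests in scipy 1.17.1. The common biological coefficient of variation was 0.0641, and 3 counts equal 0.1518 to 0.1963 CPM. Alternatives used other size factors, filters, limma 3.58.1 on log2(FPKM + 1) and log2(FPKM + 0.1), DESeq2 1.42.0, a replicate block, 2 groups alone, and each library left out; leaving out list genes with fewer than 10 counts in all libraries of a group was chosen after seeing the data.

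The 10 genes, the pathway lists and the markers were chosen with earlier results of these data known. One marker of the leukocyte list is not reported here. Besides the 10, each list gives up to 3 genes called in the same direction with both siRNAs and 1 called in opposite directions, ranked by the smaller of the 2 absolute fold changes, plus CTNNB1, LEF1, WLS and LRP5.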

Additional observations from a re-analysis of the deposited data

Results flagged for a closer look

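Counted here are the 10 Wnt genes and those that the rule above took from the lists. Of these, 10 were called in opposite directions by the siRNAs against control, which fixes that they differ between the siRNAs. CD44, named above only as a marker, is a listed beta-catenin target also called in opposite directions, and is not counted. The sizes are given as a description. Among the 10 genes studied these were WNT5A, with a log2 difference of 1.13 (siRNA2 over siRNA1), and DKK1, with −0.60. Higher with siRNA2 were also WNT7B (1.03), PORCN (1.27), FZD1 (2.08), APC (1.30) and BCL9L (1.05). Lower with siRNA2 were CELSR2 (−1.64), SOX9 (−2.53) and CTNNB1 (−0.86). The call against control was lost under some alternatives for WNT5A and SOX9 with siRNA1 and for APC with siRNA2.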

How the results depend on the processing

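The number of Wnt genes called in opposite directions was 2, and 1 under limma on log2(FPKM + 1) and on log2(FPKM + 0.1), where WNT5A with siRNA1 missed the threshold (adjusted p = 0.117 and 0.105); with 1 library left out it was 1 to 3. Of the 10 genes, 5 to 8 were called with siRNA1, 7 with siRNA2 and 6 to 7 between the siRNAs when 1 library was left out, and 3 were called in the same direction with both siRNAs. The adjusted p of WNT5A with siRNA1 ran from 0.00535 to 0.202 over all alternatives, and that of AXIN2 from 0.00529 to 0.154. Over all genes, 6545 to 7750 were called with siRNA1, 7388 to 8925 with siRNA2 and 7762 to 9634 between the siRNAs. Requiring a mean FPKM of 1 removes AXIN2, DKK3 and TCF7.

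For MILIP, siRNA2 over siRNA1 gave a log2 difference of −0.99 (adjusted p = 0.0264), which missed the threshold under limma on log2(FPKM + 1) (−0.31), limma on log2(FPKM + 0.1) (−0.81) and in a fit of those 2 groups alone (−0.97); with 1 library left out it ran from −1.48 to −0.51 and missed the threshold without siRNA1 library 3 (adjusted p = 0.308), siRNA2 library 1 (0.083) or siRNA2 library 3 (0.121). Differences near 0 changed sign for WNT5B with siRNA1 (−0.0016 without siRNA1 library 1, up to 0.12 without others), FZD2 with siRNA2 (−0.0015 without siRNA2 library 1, −0.03 without control library 1, up to 0.06), AMER1 between the siRNAs (−0.03 without siRNA1 library 3, up to 0.22) and WLS with siRNA2 (0.0033 at a mean FPKM of 1 or more, 0.0044 without control library 3, down to −0.06). FZD6 between the siRNAs passed without siRNA1 library 2 (0.19, adjusted p = 0.0281). Under limma on log2(FPKM + 1), the calls of LGR5 (adjusted p = 0.218) and APC (0.0586) with siRNA2 were also lost. Under limma on log2(FPKM + 0.1), the siRNA2 calls of LGR5 (adjusted p = 0.0778), APC (0.0592) and PYGO1 (0.0845) were lost. So was the SOX9 call with siRNA1 (0.061). The cause of these changes was not tested.

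Libraries with the same number did not pair: the correlations of their deviations ran from −0.051 to 0.097, and 2 of 9 libraries correlated best with their own number. With the replicate number as a block, 7750, 8604 and 9294 genes were called with siRNA1, with siRNA2 and between the siRNAs, and 7, 7 and 6 of the 10 Wnt genes. AXIN2 and TCF7, at a few CPM, have the widest errors of the 10, and depth limits what they show.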

Other observations

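Other Wnt pathway genes, named here after their values were seen, also differed between the siRNAs. WNT9A averaged 68.0 ± 3.88 CPM with siRNA1, 16.1 ± 1.65 CPM with siRNA2 and 15.6 ± 1.83 CPM in controls, with log2 fold changes against control of 2.12 with siRNA1 (edgeR adjusted p = 2.2e-15) and 0.05 with siRNA2 (adjusted p = 0.735). LGR4, an R-spondin receptor, averaged 108.7 ± 7.39 CPM with siRNA1, 74.7 ± 2.99 CPM with siRNA2 and 68.1 ± 6.09 CPM in controls, and rose with siRNA1 (0.68, adjusted p = 2.83e-08). ZNRF3, a ubiquitin ligase that removes Frizzled receptors from the cell surface, averaged 10.6 ± 0.820 CPM with siRNA1, 5.14 ± 0.728 CPM with siRNA2 and 11.1 ± 1.55 CPM in controls, and fell with siRNA2 (−1.11, adjusted p = 2.9e-07). FZD7 averaged 38.9 ± 4.76 CPM with siRNA1, 62.6 ± 4.21 CPM with siRNA2 and 37.5 ± 1.89 CPM in controls, and rose with siRNA2 (0.74, adjusted p = 6.28e-08).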
